A study of Rattus norvegicus with 82 samples.

Results

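Corticotropin-releasing hormone (CRH) and its relatives were described here in 7 regions of the rat brain. The members were the probe sets (groups of short probes for 1 transcript) that the platform's annotation assigns to the single symbol Crh, Crhr1, Crhr2, Crhbp or Ucn. Of the 31042 probe sets analysed, which name 14217 genes, 3 fulfilled this rule, 1 each for Crh (1369303_at), Crhbp (1369908_at) and Ucn (1387645_at). The receptor genes Crhr1 and Crhr2 had no probe set under these symbols in that annotation and were not analysed here.

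CRH is a peptide that neurons of the hypothalamic paraventricular nucleus release to the pituitary, where it drives secretion of adrenocorticotropic hormone and through it adrenal glucocorticoid. Glucocorticoid in turn restrains the CRH neurons of this nucleus, and CRH is also made outside the hypothalamus, among other places in the cortex, the central amygdala and the pons. Urocortin, the product of Ucn, is a second ligand of the CRH receptors, which couple to cyclic AMP, and Crhbp encodes a binding protein that holds CRH and urocortin away from their receptors.

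Total RNA was measured on 80 arrays that the labels place in a region, a treatment and a time of day. A further 2 arrays had no treatment, and their source name reads frontal cortex, as does that of septum, dorsal raphe and locus coeruleus arrays. The treatments are named ADX, pADX and Sham, and the times PM and AM; ADX commonly abbreviates adrenalectomy and Sham a mock operation, while no source used here gives the meaning of the p. Each region had 4 ADX, 4 pADX and 4 Sham arrays, 2 at PM and 2 at AM, except that the frontal cortex had 3 ADX and 3 Sham arrays and the hippocampus 2 pADX arrays, both labelled PM and of doubtful time. The sources used here give neither strain, age and sex nor the number of animals or any pooling, so p-values measure the spread between arrays, which may be technical.

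Values are log2 of the quantile-normalized signal with a floor at 4 (a signal of 16), so that 1 unit is a doubling of the signal. The deposited arrays stood in more than one scaling state: every amygdala, septum and frontal cortex array had a trimmed mean signal near 150.04, no hypothalamus or hippocampus array did, and in the locus coeruleus and dorsal raphe some did. Correlations between replicate arrays lay between 0.964 and 0.987. The source name of the hypothalamus arrays reads hippocampi, yet hypothalamic peptide genes marked them: Hcrt (hypocretin) averaged 9.40, against 4.14 to 5.98 in the other regions, and Pmch (melanin-concentrating hormone) 12.19, against 4.54 to 6.85. Of the 9 hypothalamus markers measured, Pomc and Otp stood at the floor on all 12 hypothalamus arrays. The serotonin transporter Slc6a4 averaged 10.66 in the dorsal raphe but also 9.61 in the locus coeruleus, where the noradrenaline-synthesizing enzyme Dbh averaged 8.34 and the noradrenaline transporter Slc6a2 stayed near the floor at 4.56.

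No upstream sequence of Crh was available in the reference used here, so none is shown. The upstream sequences of Ucn and Crhbp are shown because the receptors of this family signal through cyclic AMP and ADX bears on glucocorticoid, and response elements for both are defined short motifs. They are the 250 bases before the annotated start in RefSeq's table for build GRCr8, at chr6:30957836-30958085 on the plus strand for Ucn and chr2:28439447-28439696 on the minus strand for Crhbp, 5′ to 3′. Capitals mark matches, on either strand, to the cyclic AMP response element TGACGTCA and to its short form CGTCA, which overlaps it.
Ucn: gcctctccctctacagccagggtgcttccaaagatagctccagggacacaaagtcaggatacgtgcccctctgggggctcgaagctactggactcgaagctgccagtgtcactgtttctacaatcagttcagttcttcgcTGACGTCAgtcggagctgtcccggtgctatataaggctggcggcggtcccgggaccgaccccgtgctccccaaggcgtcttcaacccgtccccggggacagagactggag
Crhbp: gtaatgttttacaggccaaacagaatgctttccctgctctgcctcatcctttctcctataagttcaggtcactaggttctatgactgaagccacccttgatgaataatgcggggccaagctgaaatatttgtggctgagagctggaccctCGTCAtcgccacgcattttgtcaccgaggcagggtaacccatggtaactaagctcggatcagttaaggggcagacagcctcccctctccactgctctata
Ucn held the full element 110 to 103 bases before its start, a motif in 1.59% of the 33469 windows of this length in the table. Crhbp held the short form 100 to 96 bases before its start, a motif in 18.2% of windows. The palindromic consensus of the glucocorticoid response element was in neither window and in 0.012% of all windows. These matches describe letters and show no binding.

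The regions differed in all 3 genes, as did 65.3% of all probe sets (limma's moderated F test over 80 arrays with treatment, time and replicate as a block, Benjamini-Hochberg adjusted p at most 0.05). Adjusted p was 7.3e-16 for Crh, 4.96e-27 for Crhbp and 2.95e-16 for Ucn. The gap between the highest and the lowest region mean was 1.5 for Crh, 2.19 for Crhbp and 1.59 for Ucn, against a median gap of 0.46 over all probe sets.

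Crh was highest in the locus coeruleus and the frontal cortex and lowest in the hippocampus and the dorsal raphe. Its level averaged 6.36 (SD 0.27, n = 12) in the locus coeruleus, 6.33 (SD 0.32, n = 10) in the frontal cortex, 5.59 (SD 0.64, n = 12) in the hypothalamus, 5.34 (SD 0.31, n = 12) in the amygdala, 5.21 (SD 0.32, n = 12) in the septum, 4.90 (SD 0.43, n = 12) in the dorsal raphe and 4.86 (SD 0.22, n = 10) in the hippocampus. The locus coeruleus mean was thus 2.82-fold the hippocampus mean. Single arrays ran over 6.01, 6.34 and 6.81 (lowest, median, highest) in the locus coeruleus and over 4.63, 4.78 and 5.23 in the hippocampus, so these regions did not overlap. Of the 21 pairs of regions, 14 differed by limma at an adjusted p of at most 0.05. For this count and those of Crhbp and Ucn below, the share of all probe sets passing such pair tests is not given. By the F test over regions 65.3% of all probe sets passed. The locus coeruleus and the frontal cortex did not differ detectably from each other (0.00, 95% confidence interval -0.32 to 0.33 for frontal cortex minus locus coeruleus). Nor did the dorsal raphe and the hippocampus (0.05, 95% confidence interval -0.28 to 0.38 for dorsal raphe minus hippocampus). The hypothalamus was 0.25 above the amygdala, which did not pass (95% confidence interval -0.06 to 0.56, limma adjusted p = 0.216), nor did its 0.38 over the septum (adjusted p = 0.0548). These means pool the treatments, and that of the hypothalamus includes ADX arrays of 5.62 to 6.95. Sham hypothalamus arrays lay at 5.02 to 5.50, against 4.89 to 5.85 for Sham amygdala. For pADX arrays the ranges were 4.89 to 5.40 in the hypothalamus and 4.99 to 5.62 in the amygdala. The amygdala passed against the hippocampus (0.49, adjusted p = 0.0182) and the dorsal raphe (0.44, adjusted p = 0.0185), but not against the septum. Over arrays, a tissue with fewer Crh cells and one with less Crh RNA per cell cannot be told apart.

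**Figure D1:**
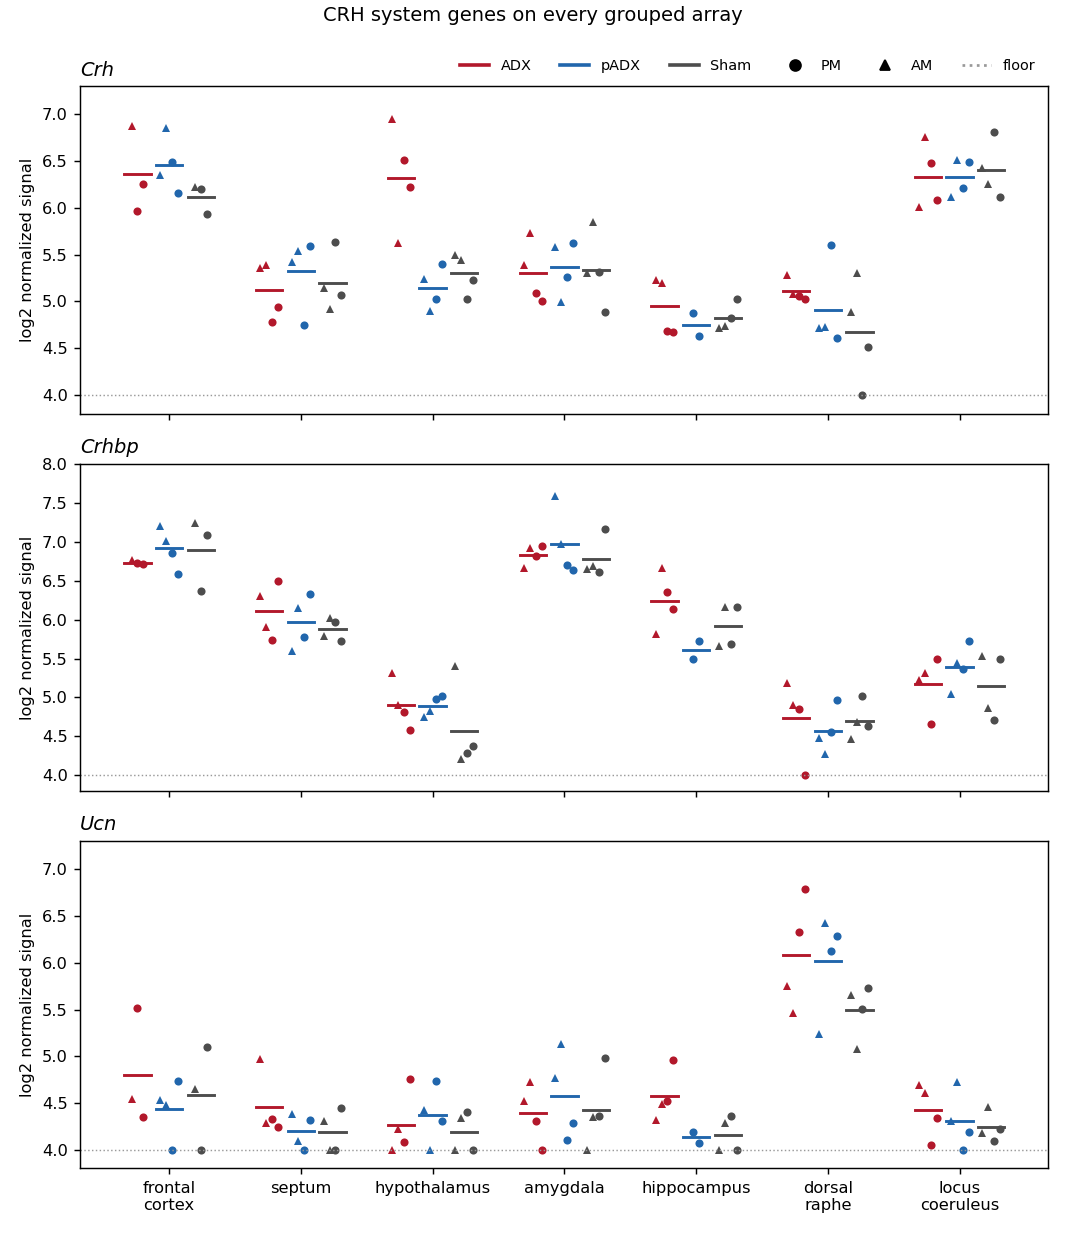
Log2 normalized signal of Crh, Crhbp and Ucn (vertical axes) on each of the 80 grouped arrays by region (horizontal axis), with ADX, pADX and Sham side by side, PM arrays as circles, AM arrays as triangles and group means as short lines. Crh stands highest in the locus coeruleus and frontal cortex, Crhbp in the amygdala and frontal cortex, and Ucn in the dorsal raphe, while most Ucn values elsewhere lie near the floor of 4 (dotted line).

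Crhbp followed another order. It averaged 6.86 (SD 0.29, n = 12) in the amygdala and 6.85 (SD 0.28, n = 10) in the frontal cortex, then 5.99 (SD 0.37, n = 10) in the hippocampus, 5.98 (SD 0.28, n = 12) in the septum, 5.24 (SD 0.35, n = 12) in the locus coeruleus, 4.79 (SD 0.38, n = 12) in the hypothalamus and 4.67 (SD 0.34, n = 12) in the dorsal raphe, where 1 array stood at the floor. The amygdala mean was at least 4.57-fold the dorsal raphe mean. Of the 21 pairs, 18 differed by limma, and the 3 that did not were the neighbours frontal cortex and amygdala (0.01, 95% confidence interval -0.28 to 0.29), hippocampus and septum (0.01, -0.28 to 0.30) and hypothalamus and dorsal raphe (0.12, -0.15 to 0.39). The hypothalamus and the amygdala, whose Crh levels did not differ detectably, were thus 2.07 apart in Crhbp, the amygdala being higher on each of its arrays (6.61 to 7.59, against 4.22 to 5.41 in the hypothalamus).

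Ucn stood out in the dorsal raphe alone. Its arrays ran over 5.08, 5.74 and 6.78 (lowest, median, highest) there, with a mean of 5.86 (SD 0.52, n = 12) and none at the floor. The other 6 region means lay between 4.27 and 4.59, with 1 to 4 arrays of each region at the floor. The dorsal raphe differed from each of the other 6 regions, by at least 2.44-fold (frontal cortex, limma adjusted p = 6.27e-11) to at least 3.01-fold (hypothalamus, adjusted p = 2.38e-14), and none of the 15 remaining pairs passed. Neurons of the Edinger-Westphal nucleus, in the midbrain near the dorsal raphe, are the best known source of urocortin, and their dissection into these samples was not tested. Of that cell group's other listed markers, Cartpt (CART peptide) averaged 9.62 in the dorsal raphe, below its 10.15 in the hypothalamus, and Nmb (neuromedin B) 5.04, close to its 5.08 in the amygdala and below its 7.42 in the locus coeruleus.

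The genes whose 7 region means ran most like each member were listed among 3520 named probe sets with at least 1 unit between regions, as a description in which all points share the same dissections. For Crh they were Grm8 (a glutamate receptor, r = 0.835), Cox6a2, Stard10, Gsk3b and Mapk11 (r = 0.781). For Crhbp they were Kcnh3 (a potassium channel, r = 0.991), C1qtnf4, Cyp46a1, Dlgap4 and Mink1 (r = 0.982). For Ucn they were Pou4f1 (a transcription factor, r = 0.972), Foxa2, Tcf7l2, Cryba2 and Cnpy1 (r = 0.923).

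The treatments pose the question whether the CRH system of each region responds to ADX or pADX. The largest difference of the 3 genes was that of Crh in the hypothalamus. Its level was 6.51 and 6.22 on the PM arrays and 6.95 and 5.62 on the AM arrays of ADX hypothalamus. In pADX hypothalamus it was 5.03 and 5.40 at PM and 5.24 and 4.89 at AM. In Sham hypothalamus it was 5.02 and 5.23 at PM and 5.50 and 5.45 at AM. All 4 ADX arrays lay above all 4 pADX and all 4 Sham arrays, 3 of them by a wide margin and 1 AM array by little. As normalized signal Crh was 49.2 to 123.6 in ADX, 29.7 to 42.1 in pADX and 32.5 to 45.1 in Sham arrays.

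ADX hypothalamus averaged 6.32 (SD 0.56) and Sham hypothalamus 5.30 (SD 0.22, n = 4 each), a difference of 1.03 (SE 0.27, 95% confidence interval 0.41 to 1.64) or 2.04-fold. Of all probe sets 0.0193% had a larger positive difference in this comparison. The difference did not pass the threshold when the region was fitted alone (unadjusted p = 0.0044, limma adjusted p = 0.498, n = 4 arrays each). In that fit 0.0161% of probe sets (5) passed, all of them lower in ADX. A 2-sided exact permutation test over the arrays gave p = 0.0286, the smallest that 4 against 4 allows, and 1.58% of all probe sets had every ADX array above every Sham array. In 1 limma fit over all 80 arrays, which pools the spread of the regions, the same difference passed (SE 0.22, 95% confidence interval 0.57 to 1.48, adjusted p = 0.0268), as did 0.232% of probe sets. That SE was below the 0.27 of the region alone, where the ADX arrays had an SD of 0.56. The pooled fit also took arrays of different regions as independent, though they may come from the same animals.

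Set against pADX hypothalamus, which averaged 5.14 (SD 0.22, n = 4), ADX hypothalamus was 1.18 higher (SE 0.27, 95% confidence interval 0.57 to 1.80) or 2.27-fold. Its limma adjusted p was 0.333 in the region alone, where 0.00966% of probe sets passed, and 0.00496 in the fit over all 80 arrays, where 0.399% passed. No overlap with ADX above was found in 1.86% of probe sets. This comparison shares its ADX arrays with the one against Sham. Crh in pADX hypothalamus did not differ detectably from Sham (-0.16, 95% confidence interval -0.77 to 0.45).

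The ADX minus Sham difference was positive at both times of day and passed at neither (limma adjusted p = 0.816 at PM and 0.84 at AM). At AM 1 of the ADX arrays, at 5.62, lay near the Sham arrays, at 5.50 and 5.45. ADX exceeded Sham by 1.24 at PM and by 0.81 at AM (0.20 at AM on values as deposited), with 2 arrays in each group, and the interaction of ADX with time of day was 0.42 (95% confidence interval -0.95 to 1.80, limma adjusted p = 1). Without ADX AM replicate 1 the ADX minus Sham difference was 0.80, and without ADX AM replicate 2, the lowest ADX array, it was 1.30. PM and AM hypothalamus did not differ detectably in Crh over the 3 treatments (-0.04, 95% confidence interval -0.54 to 0.46).

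**Figure D2:**
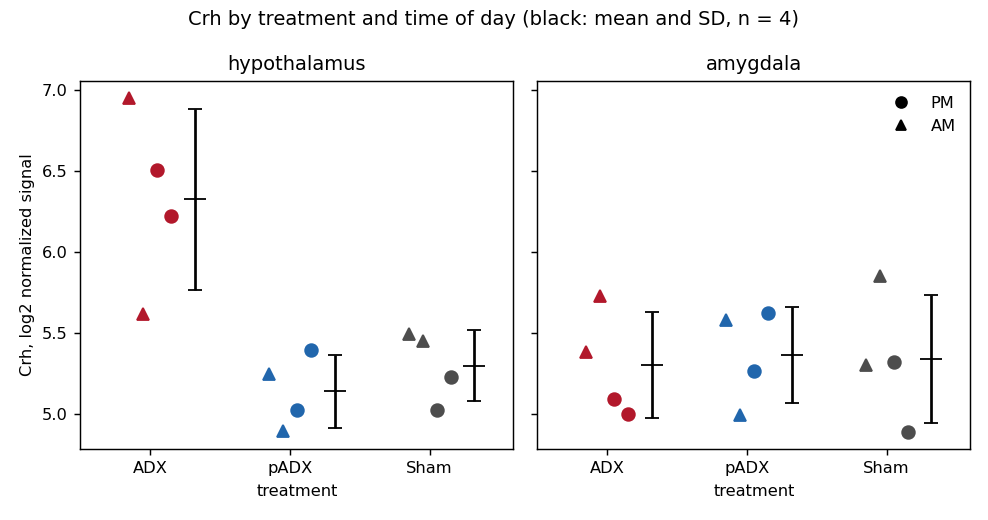
Log2 normalized signal of Crh (vertical axis) on each array of the hypothalamus (left) and amygdala (right) by treatment, with PM arrays as circles, AM arrays as triangles and black bars for mean and SD (n = 4). The 4 ADX hypothalamus arrays lie between 5.62 and 6.95, above all pADX and Sham arrays, and the 3 treatments overlap in the amygdala.

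The separation depended on the scaling between arrays. As deposited, the Crh signal was 64 and 61.9 at PM and 77.2 and 29.1 at AM in ADX hypothalamus, against 25.6 to 38.6 in pADX and 27.5 to 43.1 in Sham, so that the 29.1 lay within both. The ADX arrays also tended to be dimmer, with overlap. Their trimmed mean signal was 73.6 to 96.4, against 89.7 to 109 in pADX and 94.2 to 118 in Sham hypothalamus. On deposited values the log2 difference of ADX minus Sham was 0.66.

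Markers of other cells also moved with ADX in this region, and their part in the Crh result was not tested. All 3 blood markers measured were lower in ADX hypothalamus than in Sham and in pADX, each with an unadjusted p under 0.05 and none past the adjusted threshold. Their mean level was 6.29 to 7.05 on ADX arrays, 7.81 to 8.14 on pADX arrays and 7.71 to 8.54 on Sham arrays, without overlap, and their summed signal 1065 to 2834 on ADX arrays, 3496 to 5921 on pADX arrays and 3866 to 7004 on Sham arrays. Hbb (a beta globin) averaged 10.71 (SD 0.59) in ADX, 12.04 (SD 0.34) in pADX and 12.28 (SD 0.34) in Sham hypothalamus, and Slc4a1 (the anion exchanger of red cells) was at the floor on all 4 ADX arrays. The 6 meninges and fibroblast markers had a median of -0.32 in ADX minus Sham and -0.55 in ADX minus pADX, and their summed signal overlapped, at 1030 to 2053 on ADX, 1932 to 2697 on pADX and 1283 to 2488 on Sham arrays. Of the 9 hypothalamus markers, 4 were positive and 3 negative in both comparisons and 2, Pomc and Otp, had no difference to show at the floor. None passed, and their mean level was 7.85 to 7.99 on ADX, 7.85 to 8.02 on pADX and 7.83 to 8.08 on Sham arrays.

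Genes that surround CRH in its pathway did not pass in hypothalamus ADX vs Sham or ADX vs pADX. Of the 32 measured genes of CRH receptor signalling (G proteins, adenylyl cyclases, protein kinase A, CREB factors and others), 0 passed in either direction, 17 being positive and 15 negative in ADX minus Sham with a median of 0.01, against 0 over all probe sets. Among them 4 had an unadjusted p under 0.05 (6.42% of all probe sets did), all lower in ADX: Gnaq, the alpha subunit of a G protein that activates phospholipase C (-0.70, limma adjusted p = 0.214), Rapgef3, a cyclic AMP sensor (-0.42, adjusted p = 0.498), the CREB relative Atf1 (-0.29, adjusted p = 0.639) and the kinase Sik1, which acts on CREB coactivators (-0.40, adjusted p = 0.752). Of 10 transcription factors of CRH neurons 0 passed, and Fos, an immediate early gene, was at 0.24 (adjusted p = 0.860). Among these factors Otp, Pou3f2 and Fosb stood at the floor on all 12 hypothalamus arrays and could show no difference. Rest was at the floor on 10 of the 12.

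Of the 14 measured genes of the hypothalamic-pituitary-adrenal axis 0 passed, with a median of -0.07. These include Pomc and Oxtr, at the floor on all 12 hypothalamus arrays and unable to show a difference, and Avpr1b, at the floor on 9. Avp, which encodes vasopressin, a partner of CRH in driving adrenocorticotropic hormone, was lower by 0.52 in ADX than in Sham (unadjusted p = 0.0085, limma adjusted p = 0.584), opposite in sign to Crh. Tsc22d3, a glucocorticoid-induced gene also known as Gilz, was at -0.28 (adjusted p = 0.739), Sgk1, a kinase that glucocorticoid also induces, at -0.73 (adjusted p = 0.803) and Nr3c1, the glucocorticoid receptor, at -0.13 (adjusted p = 0.901). Of 16 other hypothalamic neuropeptides 0 passed, and the lowest p among them was that of Pdyn (prodynorphin, -0.47, adjusted p = 0.180). Over the 12 hypothalamus arrays Crh correlated with Oxt (oxytocin) at r = 0.578, with Avp at -0.379 and with Ghrh (growth hormone-releasing hormone) at -0.692, points that share treatment and dissection. By the same measure over named probe sets above the floor on all 12 arrays, the 5 genes most like Crh were Bmerb1 (r = 0.886), Aak1, Pcmt1, Plxna3 and Nsmce4a (r = 0.852).

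Whether the ADX effect on Crh differed between regions was tested directly. The F test over the 7 regions gave an unadjusted p of 0.0212 and a limma adjusted p of 0.204, and 2.44% of probe sets passed it. The ADX minus Sham difference of the hypothalamus exceeded the mean of the other 6 regions by 0.91 (95% confidence interval 0.39 to 1.43, unadjusted p = 0.000886, limma adjusted p = 0.278), a contrast that 0.0322% of probe sets passed and that was chosen with the hypothalamic value known. At this threshold the Crh response was thus not shown to differ between regions.

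**Figure D3:**
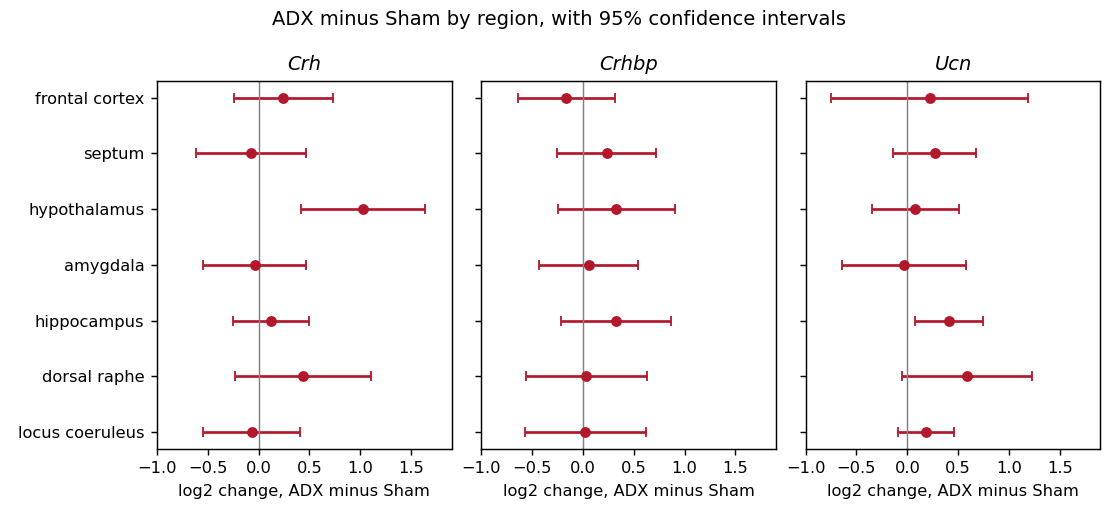
ADX minus Sham log2 change (horizontal axes) of Crh, Crhbp and Ucn in each of 7 regions, with 95% confidence intervals from the fit of each region alone. Crh in the hypothalamus, at 1.03, lies farthest from 0, and beside it the interval of Ucn in the hippocampus, at 0.41, is the other one that does not include 0.

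In the amygdala, where the central nucleus is known for CRH neurons, Crh showed no such separation. It was 5.09 and 5 at PM and 5.38 and 5.73 at AM in ADX, 5.26 and 5.62 at PM and 5.58 and 4.99 at AM in pADX, and 5.32 and 4.89 at PM and 5.30 and 5.85 at AM in Sham amygdala. The 3 treatments overlapped throughout. ADX minus Sham was -0.04 (95% confidence interval -0.55 to 0.47), pADX minus Sham 0.02 (-0.48 to 0.53) and ADX minus pADX -0.06 (-0.57 to 0.44), each with a limma adjusted p of 1, while 0.0129% of probe sets passed in ADX vs Sham. A doubling like that in the hypothalamus thus lay outside these intervals.

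PM amygdala averaged 5.20 (SD 0.26) in Crh and AM amygdala 5.47 (SD 0.31, n = 6 each), a difference of -0.27 (95% confidence interval -0.69 to 0.14, limma adjusted p = 0.994). Markers listed for the hypothalamus varied between amygdala arrays, and their source was not tested. The summed signal of the 9 ran from 424.3 to 1396 on ADX, from 273.5 to 699.2 on pADX and from 215.5 to 2148 on Sham arrays. Avp, Oxt and Pmch were above the floor on all 12 amygdala arrays, at means of 7.40, 6.14 and 6.85, while Pomc was at the floor on all 12, Otp on 11, Ghrh on 9, Trh on 8 and Sim1 on 7. Crh correlated with the mean level of the 9 markers at r = 0.235 over the 12 amygdala arrays. The 3 blood markers did not go one way here, and none passed in ADX vs Sham. Hbb averaged 9.41 (SD 0.77) in ADX, 10.32 (SD 0.47) in pADX and 11.21 (SD 0.25) in Sham amygdala, while Alas2 (an enzyme of heme synthesis in red cells) averaged 4.14 in ADX, 4.71 in pADX and 5.85 in Sham amygdala. Slc4a1 averaged 4.84 (SD 0.59) in ADX, 5.02 (SD 0.35) in pADX and 4.40 (SD 0.29) in Sham amygdala, the opposite sign against Sham. Of the 32 receptor signalling genes 0 passed in ADX vs Sham of this region, and of the 14 axis genes 0 passed, among them Nr3c2, the mineralocorticoid receptor, at 0.50 (limma adjusted p = 0.4). Fkbp5, another axis gene, was at -0.67 (adjusted p = 0.759) and Sgk1 at -0.56 (adjusted p = 0.902). Nr3c1 was at 0.28 (adjusted p = 0.845) and Tsc22d3 at -0.17 (adjusted p = 0.936). Grk3 among the signalling genes and Oxtr and Pomc among the axis genes were at the floor on all 12 amygdala arrays. The 5 named genes most like Crh over the amygdala arrays were Mmp24 (r = 0.882), Ifitm10, Nif3l1, Medag and S100a10 (r = 0.797).

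In the other 5 regions the ADX minus Sham difference of Crh ran from -0.07 in the septum to 0.43 in the dorsal raphe, and none passed. In the dorsal raphe Crh was 5.06 and 5.02 at PM and 5.28 and 5.08 at AM in ADX, against 4 (the floor) and 4.51 at PM and 4.89 and 5.31 at AM in Sham. The Sham arrays reached above and below the ADX arrays, and the difference of 0.43 had a 95% confidence interval of -0.23 to 1.10. It was 0.22 without Sham PM replicate 1, the array at the floor, and -0.17 on values as deposited. In the frontal cortex Crh was 6.17 (SD 0.21, n = 6) at PM and 6.57 (SD 0.34, n = 4) at AM, a difference of -0.38 (95% confidence interval -0.77 to 0.01, limma adjusted p = 0.893). PM minus AM of Crh was negative in 6 of 7 regions, and none passed.

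For Crhbp no comparison of treatments passed in any region. ADX minus Sham ran from -0.17 in the frontal cortex to 0.33 in the hypothalamus and was positive in 6 of 7 regions, with a lowest limma adjusted p of 0.762. In the hypothalamus, where Crh was raised on ADX arrays, Crhbp was 4.81 and 4.58 at PM and 5.31 and 4.90 at AM in ADX, against 4.29 and 4.37 at PM and 5.41 and 4.22 at AM in Sham. The highest value belonged to Sham and the other 3 Sham arrays lay below all ADX arrays, a difference of 0.33 (95% confidence interval -0.25 to 0.91). In the hippocampus Crhbp was 6.36 and 6.13 at PM and 5.81 and 6.66 at AM in ADX, against 5.49 and 5.73 in its pADX arrays. The groups did not overlap there, as in 5.41% of probe sets with ADX above, and the difference of 0.63 did not pass (95% confidence interval -0.08 to 1.35, limma adjusted p = 0.729).

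For Ucn too no comparison of treatments passed in any region. In the dorsal raphe, where its level was highest, it was 6.32 and 6.78 at PM and 5.76 and 5.47 at AM in ADX, 6.12 and 6.29 at PM and 5.24 and 6.43 at AM in pADX, and 5.51 and 5.73 at PM and 5.66 and 5.08 at AM in Sham. Of the 4 ADX arrays 3 lay above every Sham array, and ADX minus Sham was 0.59 (95% confidence interval -0.05 to 1.23, limma adjusted p = 0.707). PM minus AM over the 3 treatments was 0.52 (95% confidence interval -0.00 to 1.04, adjusted p = 0.422), with 6.13 (SD 0.46) at PM and 5.60 (SD 0.48) at AM, n = 6 each. On values as deposited the ADX minus Sham difference was -0.02, and in this region 0 of 4 ADX and 2 of 4 Sham arrays were at the common scale.

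Elsewhere 3 comparisons of Ucn had an unadjusted p under 0.05 and none passed. In the hippocampus Ucn was 4.53 and 4.96 at PM and 4.32 and 4.49 at AM in ADX, against 4.36 and 4 (the floor) at PM and 4 (the floor) and 4.28 at AM in Sham. ADX was 0.41 higher, with 2 Sham arrays at the floor (95% confidence interval 0.08 to 0.75, unadjusted p = 0.0224, limma adjusted p = 0.488, exact permutation p = 0.0571). Under the alternatives run this difference lay between 0.246 and 0.571. It depends on scaling: the Ucn signal of ADX PM replicate 1 was 7.47 as deposited, under the floor of 16, and 23.0 after normalization. ADX was 0.54 above the 2 pADX arrays of this region (limma adjusted p = 0.635). The deposited scale of hippocampus arrays varied most, with a trimmed mean of 34.1 to 171 in ADX, 77.3 to 98.8 in pADX and 85.1 to 99.2 in Sham, and its part in these differences was not tested. In the locus coeruleus PM arrays averaged 4.15 (SD 0.13, 1 at the floor) and AM arrays 4.49 (SD 0.22, n = 6 each), a difference of -0.35 (unadjusted p = 0.0069, limma adjusted p = 0.628, exact permutation p = 0.0152). The 2 times overlapped, with PM arrays reaching 4.34 and AM arrays starting at 4.18.

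The 5 regions with all arrays (hypothalamus, amygdala, septum, locus coeruleus and dorsal raphe) were also averaged into 12 units. In these, Crh was 5.58 and 5.45 at PM and 5.80 and 5.72 at AM in ADX, against 5.36 and 5.16 at PM and 5.45 and 5.56 at AM in Sham. The lowest ADX unit lay within the range of the Sham units. The difference of 0.26 (95% confidence interval 0.06 to 0.45) did not pass (unadjusted p = 0.0173, limma adjusted p = 0.421), while 0.132% of probe sets did, and it contains the hypothalamic one. Ucn differed by 0.22 (adjusted p = 0.476) and Crhbp by 0.13 (adjusted p = 0.781), and on values as deposited the Crh difference was -0.02.

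The 3 genes entered 84 comparisons within regions (ADX vs Sham, pADX vs Sham, ADX vs pADX and PM vs AM in 7 regions each). By limma within each region 0 passed at an adjusted p of at most 0.05, while 0.00656% of all such tests over every probe set did. An unadjusted p that low was found in 5 of the 84, against 7.06% of all such tests, a share of the members near that background. In the fit over all 80 arrays 2 passed, both of them Crh in the hypothalamus. That fit called more probe sets, 0.232% in hypothalamus ADX vs Sham and 0.399% in ADX vs pADX. Across its comparisons the share ran from 0.0226% (locus coeruleus PM vs AM) to 6.05% (frontal cortex ADX vs Sham). ADX minus Sham was positive in 16 of 21 comparisons of a gene in a region, though arrays of different regions may come from the same animals. Some of these signs changed under the alternatives run, and the share of positive differences over all probe sets is not given here. Of the 21 comparisons of pADX with Sham, none passed, and the lowest limma adjusted p was 0.613.

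**Figure D4:**
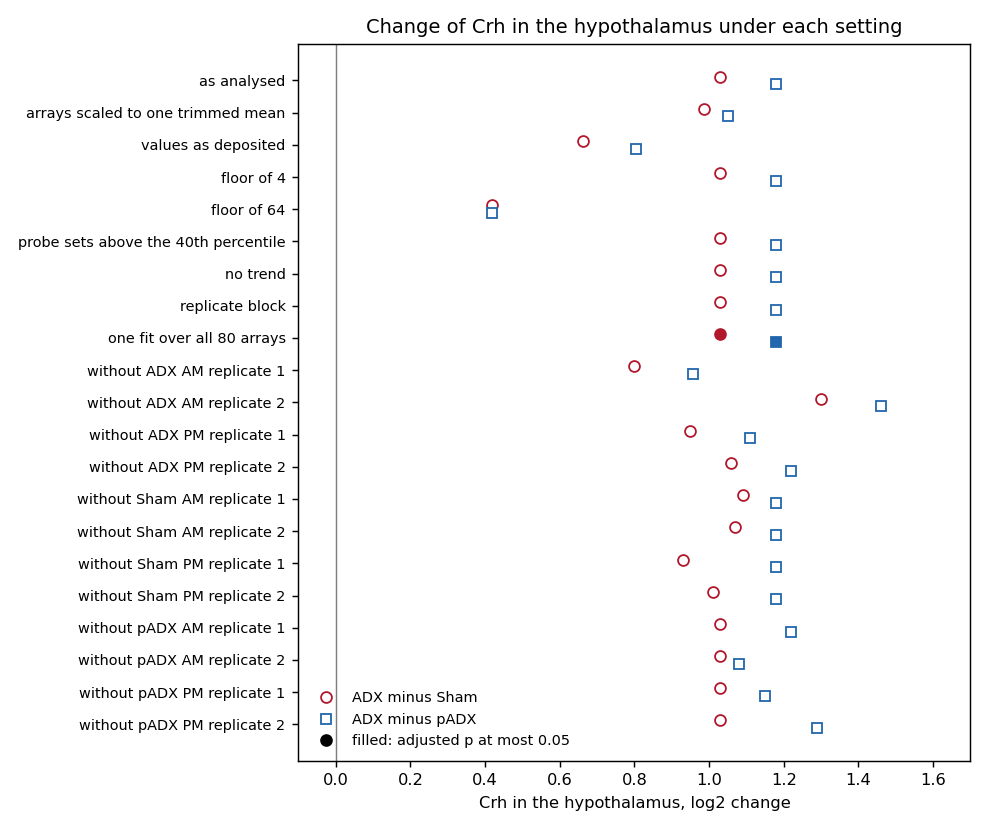
Log2 change of Crh in the hypothalamus (horizontal axis) for ADX minus Sham (circles) and ADX minus pADX (squares) as analysed and under each alternative setting (rows). All values are above 0, from 0.42 with a floor of 64 to 1.30 and 1.46 without the lowest ADX array, and only the fit over all 80 arrays brought the adjusted p under 0.05 (filled).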

How the data were processed

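The data are a table of 1 linear intensity per probe set and array, deposited by the authors; per the file headers it holds 31099 probe sets on 82 arrays. No source used here names the software or scaling behind these intensities. The number of arrays limits the precision.

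Here, the deposited intensities were quantile normalized across arrays, values under 16 were raised to 16 and log2 was taken, which left 27.5% of values at that floor. Tests omitted 57 control probe sets. Region, treatment and time come from titles and descriptions. The 2 arrays without a treatment entered no comparison. The source name disagrees with the title for 4 regions. Probe sets were named from the platform's annotation, with symbols updated through RefSeq GRCr8.

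Within each region, treatment and time of day were modelled over all 31042 probe sets with limma (version 3.58.1, R 4.3.3; moderated with an intensity trend). Regions were compared over the 80 grouped arrays, with the 12 combinations of treatment, time and replicate as a block. p-values were adjusted by Benjamini-Hochberg over all probe sets, with 0.05 as threshold. The fits were tested on simulated data. Alternatives were other scalings, floors of 4 and 64, a filter on dim probe sets, no trend, blocks, 1 fit over all arrays, and leaving out each array. All members are named; other genes are the 5 most like a member and list genes chosen by role. The members and lists were chosen with earlier results of these data known.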

Additional observations from a re-analysis of the deposited data

Results flagged for a closer look

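In 4 of 54 groups of 4 arrays, each a gene in a region and a treatment, 1 array stood apart from the other 3 by Dixon's test at 95%; chance alone sets apart about 1 group in 20. For Crh it was pADX PM replicate 1 of the dorsal raphe, at 5.60, while the other pADX arrays lay between 4.61 and 4.73. For Crhbp it was Sham AM replicate 1 of the hypothalamus, at 5.41 (others 4.22 to 4.37), and Sham PM replicate 2 of the amygdala, at 7.17 (others 6.61 to 6.68). For Ucn it was ADX AM replicate 1 of the septum, at 4.97 (others 4.25 to 4.33). The Crhbp difference between ADX and Sham hypothalamus was 0.60 without that Sham array and 0.33 with it.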

How the results depend on the processing

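The comparisons of a member within regions or across 5 regions numbered 96, with 1776 values under alternatives, of which 1616 kept direction and side of the threshold, 158 changed sign (41 of these outside leaving out an array), 2 newly passed and 0 were lost. After these were seen, 46 comparisons were chosen to be given value by value: ADX vs Sham in every region, those across 5 regions, Crh in the hypothalamus and amygdala, and those with an unadjusted p of at most 0.1. The contrast of the hypothalamus with the other 6 regions and the values by time of day were added after seeing the data. Crh in the hypothalamus stayed positive under the alternatives run, and passed in 1 fit over all 80 arrays only (1.03 against Sham, adjusted p = 0.0268, and 1.18 against pADX, adjusted p = 0.00496), where 2 member tests passed in all, against 0 within regions. Leaving out 1 array gave 0.80 to 1.30 against Sham and 0.96 to 1.46 against pADX. In the fit over all 80 arrays 0.0226% to 6.05% of all probe sets passed, depending on the comparison. Scaled to one trimmed mean, ADX minus Sham became 0.0151 for Crh in the septum, 0.00632 for Ucn in the amygdala and -0.0825 for Crhbp in the dorsal raphe. As deposited it became 0.0151 for Crh in the septum, 0.0063 for Ucn in the amygdala, -0.169, -0.479 and -0.015 for Crh, Crhbp and Ucn in the dorsal raphe, -0.429 and -0.134 for Crhbp and Ucn in the locus coeruleus, and -0.0173 and -0.106 for Crh and Crhbp across 5 regions. Also as deposited, PM minus AM became 0.0837 for Crh in the hypothalamus and 0.00029 for Crhbp across 5 regions, pADX minus Sham -0.0426 for Crh and ADX minus pADX -0.0359 for Ucn across 5 regions. A floor of 4 gave ADX minus Sham of 0.429 for Ucn in the amygdala and -0.0462 for Crhbp in the dorsal raphe; a floor of 64 gave pADX minus Sham of -0.0146 for Crh across 5 regions and -0.111 for ADX by time of day of Crh in the hypothalamus. The cause of these changes was not tested.

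Leaving out 1 array also changed the sign of small differences. ADX minus Sham ran from -0.16 to 0.10 for Crh in the amygdala, -0.233 to 0.0815 in the locus coeruleus and -0.21 to 0.12 in the septum; from -0.0115 to 0.221 for Crhbp in the amygdala, -0.139 to 0.309 in the dorsal raphe and -0.144 to 0.215 in the locus coeruleus; and from -0.24 to 0.22 for Ucn in the amygdala, -0.16 to 0.49 in the frontal cortex and -0.0633 to 0.189 in the hypothalamus. For Crh, ADX minus pADX (-0.255 to 0.0849) and pADX minus Sham (-0.12 to 0.22) in the amygdala, PM minus AM in the hypothalamus (-0.22 to 0.11) and pADX minus Sham across 5 regions (-0.0397 to 0.0878) did so too, as did ADX minus pADX across 5 regions for Crhbp (-0.0681 to 0.0669) and Ucn (-0.00657 to 0.102) and PM minus AM for Ucn (-0.0351 to 0.0533). The difference among regions passed for each gene under every alternative that gave a value, although the highest region of Crh was the frontal cortex as deposited and without replicate 1, and that of Crhbp the frontal cortex without replicate 1 and on Sham arrays only. The lowest region varied with the setting for each gene, that of Crh being the dorsal raphe with a floor of 64 and on Sham arrays only.

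The number of probe sets called in hypothalamus ADX vs Sham was 5, against 1 to 8 without 1 array and 1 to 244 under other settings; in ADX vs pADX it was 3, against 0 to 6 and 1 to 124. In amygdala ADX vs Sham it was 4, against 1 to 16 and 1 to 57, and across 5 regions 41, against 8 to 43 and 8 to 13715. With the replicate number as a block, Crh in the hypothalamus had an adjusted p of 0.594 (1.03 against Sham), and no call changed; correlations of same-numbered arrays ran from -0.16 to 0.17. With a floor of 64 some comparisons had all arrays at the floor, and the filter left out Ucn, so these gave no value. Signals near the floor limit what can be read from Ucn outside the dorsal raphe.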

Other observations

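The 2 arrays that carry no treatment label had a Crh level of 6.29 and 6.48, a Crhbp level of 6.59 and 6.73 and a Ucn level of 4 (the floor) and 4.26, each within the range of the labelled frontal cortex arrays. Their source name reads frontal cortex, but so does that of the septum, dorsal raphe and locus coeruleus arrays, so their region is not certain.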
